A study of Homo sapiens with 4 samples.

Results

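Fatty acid synthesis and desaturation genes were examined as a set of 10: FASN, SCD, ACACA, ACLY, ELOVL5, ELOVL6, FADS1, FADS2, ACSS2 and SREBF1. They were taken by matching gene ID to symbol, all 10 were found among the 61852 genes of the tables, and all 10 were among the 15965 genes high enough to test. They were selected on pathway membership with the fold changes and adjusted p-values of this same comparison in view, so the values that follow describe these genes, and their fits give no independent test of the choice. Poly(A) RNA was sequenced in 4 libraries from H1299 cells. This is a widely used line from a human lung carcinoma of the non-small-cell type, with the labelled genotype p53-/-. In 2 libraries the cells expressed CASM34, a mutant p53 in a series whose title is about synonymous mutations from cancers, which alter codons without altering amino acids. In the other 2 they expressed wild-type p53 (p53WT). Both groups thus share the p53-null line, the serum-containing medium and the expression of a p53, and the labels name no drug or damaging agent. How p53 was introduced, whether each group is a clone or a pool, and whether the 2 libraries of a group came from separate cultures is not stated in the labels. Errors and p-values therefore cover the spread among these 4 libraries alone, and that spread may be technical.

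Cells build fatty acids from citrate or acetate. ATP-citrate lyase (ACLY) and acetyl-CoA synthetase 2 (ACSS2) make cytosolic acetyl-CoA, acetyl-CoA carboxylase 1 (ACACA) commits it as malonyl-CoA, and fatty acid synthase (FASN) condenses the units into palmitate. ELOVL6 lengthens palmitate, SCD places the first double bond in saturated chains, and FADS2, FADS1 and ELOVL5 turn essential fatty acids into longer, more unsaturated ones. SREBP-1, the product of SREBF1, is the membrane-bound transcription factor that switches most of these genes on, and p53 has been reported to restrain this programme in other systems.

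All 10 genes were well expressed, with 436 to 23420 estimated counts per library. Total estimated counts were 26906095 and 18086983 in the CASM34 libraries and 21717726 and 25969760 in the p53WT libraries. Of 6 markers of epithelial and carcinoma lines, KRT8, KRT18 and VIM were high in all 4 libraries, while EPCAM, CDH1 and KRT19 stayed below 1 TPM, a unit that divides counts by transcript length. The adipocyte list, another cell type with strong lipogenesis, summed to 0.17 and 0 TPM in CASM34 and to 0.06 and 0.05 TPM in p53WT, with ADIPOQ, LEP, CIDEC and CIDEA at 0 in all 4. The hepatocyte list summed to 31.7 and 31.8 TPM in CASM34 and to 34.4 and 36.5 TPM in p53WT, nearly all of it SERPINA1, with TTR, APOB and CYP3A4 at 0. PTPRC and CD3E of the leukocyte list were at 0 in every library. The list as a whole summed to 96.8 and 98.04 TPM in CASM34 and to 93.8 and 88.5 TPM in p53WT, most of it CD68. The 6 fibroblast and endothelial markers summed to 0.75 and 2.23 TPM in CASM34 and to 1.22 and 5.64 TPM in p53WT.

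SCD was the only member to pass the test, and it fell in CASM34. Its level was 184 and 190 TPM in the CASM34 libraries, against 224 and 216 TPM in the p53WT libraries. ACACA, ELOVL5 and FADS1 had the next lowest fold changes without passing, FASN differed by less than the spread within either group, and SREBF1 was the single member with a fold change above 0. With an offset for GC content and length, described further on, FASN also fell and SREBF1 turned below 0. Of the 10 members 1 fell and 0 rose at an adjusted p under 0.05 (edgeR quasi-likelihood test, adjusted over all 15965 genes), where 0.345% of all tested genes fell and 1.61% rose, 1.95% in either direction. Fitted log2 fold changes, CASM34 over p53WT, lay below 0 for 9 of the 10. They ran from -0.23 to 0.08 around a median of -0.08, while the median over all tested genes was 0.00 and 50.2% of them lay below 0. Counts scaled to library size (CPM) did not overlap between the groups for 8 members, 7 lower and 1 higher in CASM34, where 23.4% of all tested genes were lower in this sense and 24.5% were higher. With 2 libraries against 2, an exact two-sided permutation test of a single gene cannot go below p = 0.333. In RNA from a whole culture, fewer cells that express a gene and less of its RNA per cell cannot be told apart.

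Proximal promoter sequences are shown for 3 members on which these comparisons turn: SCD, the member that fell, ELOVL5, the only member whose window held an E-box, and SREBF1, the regulator and the member with the highest fold change. They are taken from RefSeq on GRCh38.p14, 5′ to 3′ on the strand of the gene, from 250 bases before to 50 bases after an annotated start site. Capitals mark matches, on either strand, to the sterol regulatory element TCACNCCAC, the E-box CACGTG, the CCAAT box, which reads ATTGG on the other strand, and the GC box GGGCGG, which reads CCGCCC there. The SCD window is chr10:100346983-100347282, plus strand, the ELOVL5 window chr6:53348901-53349200, minus strand, and the SREBF1 window chr17:17836937-17837236, minus strand.
SCD: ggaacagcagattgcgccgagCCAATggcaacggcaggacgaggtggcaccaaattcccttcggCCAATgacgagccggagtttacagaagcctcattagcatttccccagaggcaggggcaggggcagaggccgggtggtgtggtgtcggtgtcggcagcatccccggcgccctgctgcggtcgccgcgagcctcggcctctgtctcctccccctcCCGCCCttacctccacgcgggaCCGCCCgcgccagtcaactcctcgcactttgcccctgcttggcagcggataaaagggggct
ELOVL5: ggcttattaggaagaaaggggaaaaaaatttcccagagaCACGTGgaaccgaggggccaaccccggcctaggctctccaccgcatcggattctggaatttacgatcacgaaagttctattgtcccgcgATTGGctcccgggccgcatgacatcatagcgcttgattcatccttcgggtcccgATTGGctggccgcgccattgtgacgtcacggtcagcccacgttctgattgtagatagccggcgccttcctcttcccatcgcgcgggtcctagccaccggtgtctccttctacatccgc
SREBF1: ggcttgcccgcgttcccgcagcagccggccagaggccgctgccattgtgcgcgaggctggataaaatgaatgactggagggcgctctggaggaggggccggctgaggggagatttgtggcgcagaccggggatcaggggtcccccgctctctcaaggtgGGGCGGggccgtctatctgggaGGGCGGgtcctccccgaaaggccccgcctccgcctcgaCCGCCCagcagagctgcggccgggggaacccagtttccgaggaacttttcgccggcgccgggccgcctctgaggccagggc

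The SCD window held 2 CCAAT boxes, which start 229 and 186 bases before the start site, and 2 GC boxes nearer to it, at 33 and 11 bases. ELOVL5 had an E-box at 211 bases and 2 CCAAT boxes at 122 and 68 bases before its start site. SREBF1 had 3 GC boxes and no CCAAT box in its single window, and any other start of that gene was not covered. No match to one motif overlapped a match to another in these 3 windows. Over the 14 windows of the 9 members found in the table (FASN had no entry), 8 windows of 6 members held a CCAAT box and 11 windows of 8 members a GC box, where 34.6% and 45.0% of all 35116 windows hold them. An E-box was in 1 of the 14, where 7.26% of all windows hold one, and the sterol element in none, where 1.13% of all windows hold it. CCAAT boxes were in windows of SCD, ACACA, ACLY, ACSS2, ELOVL5 and FADS2, and in none of SREBF1, FADS1 and ELOVL6. The 2 ACLY windows overlap and hold the same CCAAT boxes, which are thus counted in both. The 2 FADS2 windows overlap as well, so the 14 windows are not all distinct. The matches are letters within a short window and say nothing of binding.

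**Figure D1:**
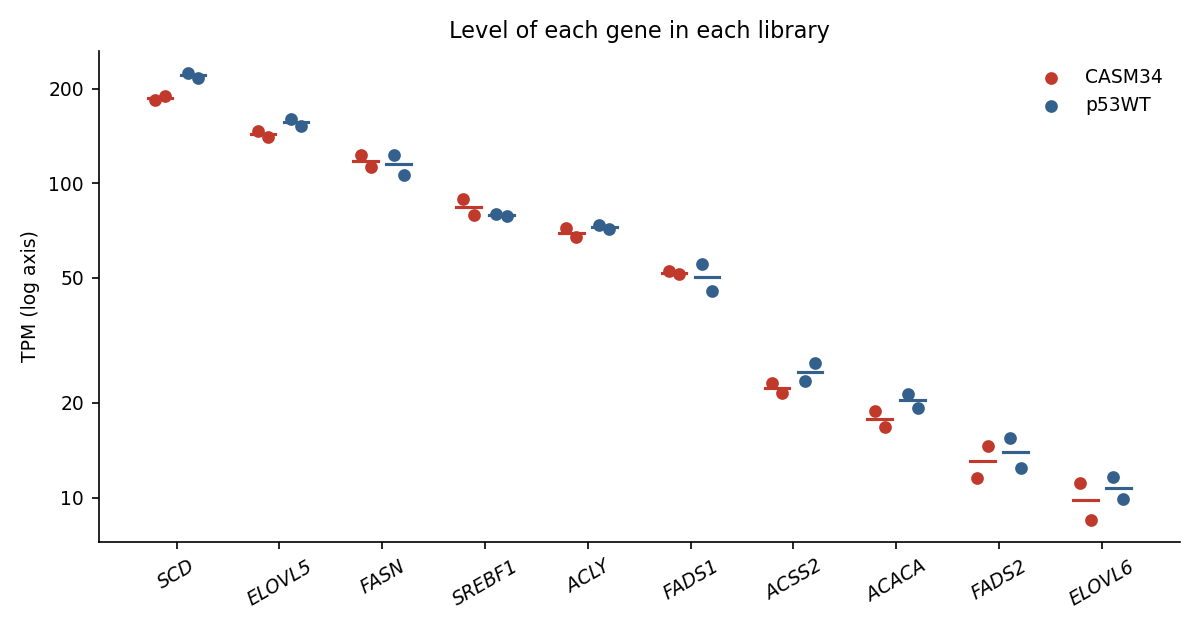
Level of each of the 10 genes in TPM (log axis), ordered by mean level. Each point is 1 library, CASM34 in red on the left and p53WT in blue on the right, and bars are group means. The CASM34 points of SCD, 184 and 190 TPM, lie below both p53WT points, while those of FASN and FADS1 lie among them.

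Per transcript length, SCD was the most abundant of the 10 in every library and ELOVL6 the least abundant by mean. Mean levels over the 4 libraries ran in the order SCD (204 TPM), ELOVL5 (149.9 TPM), FASN (116 TPM), SREBF1 (81.7 TPM), ACLY (71.1 TPM), FADS1 (51.1 TPM), ACSS2 (23.7 TPM), ACACA (19.1 TPM), FADS2 (13.5 TPM) and ELOVL6 (10.3 TPM). The ranges of neighbours in this order did not overlap except for FADS2 and ELOVL6, although the lowest ACSS2 library, 21.5 TPM, was close to the highest ACACA library, 21.4 TPM. The 10 genes together summed to 731 and 702 TPM in CASM34, against 788 and 739 TPM in p53WT. They took 0.253% and 0.247% of counts in CASM34 and 0.274% and 0.262% in p53WT, so both CASM34 libraries were lower. SCD alone made up 26.1% ± 1.27 of the summed level in CASM34 and 28.8% ± 0.584 in p53WT (SD, n = 2 each), without overlap.

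SREBF1 (ENSG00000072310.18; GRCh38 chromosome 17, 17810399 to 17837002, minus strand, GENCODE 29) encodes SREBP-1a and SREBP-1c from alternative starts, which gene-level values do not separate. It had 89.0 and 79.5 TPM in CASM34, against 79.8 and 78.4 TPM in p53WT, and these groups overlapped. In CPM it had 203 and 198 in CASM34, against 193 and 187 in p53WT, without overlap. The log2 fold change was 0.08 (SE 0.05, edgeR adjusted p = 0.413), with a 95% interval from -0.02 to 0.18. The direction turned with the GC and length offset, to -0.15 (edgeR adjusted p = 0.116), outside that interval. Its counts were fractional in all 4 libraries, so the level includes reads that were shared with other gene models. Counts were also fractional in 2 libraries for ACLY and in 1 library each for FADS1, FADS2 and ELOVL6. SREBF1 spans the microRNA gene MIR33B, listed at 0 counts here, and overlaps 1055 bases of RAI1 on the other strand.

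The genes that feed and start the pathway lay slightly below 0 and did not pass. ACLY (ENSG00000131473.17; chromosome 17, 41866908 to 41930542, minus strand) had 71.8 and 67.2 TPM in CASM34, against 73.5 and 71.7 TPM in p53WT, a log2 fold change of -0.06 (SE 0.05). In TPM the p53WT libraries were close to each other, and the higher CASM34 library reached into their range. In CPM ACLY had 227 and 216 in CASM34, against 232 and 230 in p53WT, without overlap. ACSS2 (ENSG00000131069.20; chromosome 20, 34872146 to 34927962, plus strand) had 23.1 and 21.5 TPM in CASM34, against 23.5 and 26.8 TPM in p53WT, a log2 fold change of -0.07 (SE 0.06). In TPM its 2 groups did not overlap, but the gap between them was smaller than the gap between the p53WT libraries. In CPM ACSS2 had 36.7 and 35.6 in CASM34, against 38.11 and 38.05 in p53WT. These groups did not overlap, and the p53WT libraries were close to each other. ACSS2 overlaps 715 bases of GGT7 on the other strand.

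ACACA (ENSG00000278540.5; chromosome 17, 37084988 to 37406818, minus strand), whose product sets the pace of synthesis, had 18.9 and 16.8 TPM in CASM34, against 21.4 and 19.3 TPM in p53WT. Both CASM34 libraries were lower than both p53WT libraries. In CPM the CASM34 libraries were almost equal, at 84.4 and 84.0, against 97.4 and 89.1 in p53WT. The log2 fold change was -0.15 (SE 0.05, edgeR adjusted p = 0.183), with a 95% interval from -0.26 to -0.03 before adjustment over genes. It moved to -0.09 without p53WT replicate 1 and to -0.21 without p53WT replicate 2. The second carboxylase gene, ACACB, which serves the control of fatty acid oxidation, stayed low, with 4.39 and 3.37 TPM in CASM34 and 3.33 and 1.79 TPM in p53WT.

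FASN (ENSG00000169710.9; chromosome 17, 82078333 to 82098332, minus strand) had 122 and 113 TPM in CASM34, against 123 and 106 TPM in p53WT. The 2 libraries of each group lay farther apart than the groups did: log2 CPM differed by 0.17 between the CASM34 libraries and by 0.13 between the p53WT libraries, while the group means differed by -0.01. The log2 fold change was -0.01 (SE 0.06, edgeR adjusted p = 0.958). Its 95% interval, from -0.14 to 0.12, covers changes from -9.29% to 8.81%. The GC and length offset put FASN outside that interval, at -0.29, where it passed (edgeR adjusted p = 0.0255). Leaving out CASM34 replicate 1 or 2 moved it to -0.10 or 0.07, and leaving out p53WT replicate 1 or 2 moved it to 0.05 or -0.07. It passed in none of these leave-outs.

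The elongases gave low values that did not pass. ELOVL5 (ENSG00000012660.14; chromosome 6, 53267398 to 53349179, minus strand), which lengthens polyunsaturated chains, had 146 and 141 TPM in CASM34, against 160.2 and 152 TPM in p53WT. Both CASM34 libraries were lower, and the log2 fold change was -0.12 (SE 0.05, edgeR adjusted p = 0.187). ELOVL6 (ENSG00000170522.10; chromosome 4, 110045846 to 110199199, minus strand), which lengthens palmitate, had 11.1 and 8.50 TPM in CASM34, against 11.6 and 9.87 TPM in p53WT. Its groups overlapped, and the log2 fold change was -0.04 (SE 0.06, edgeR adjusted p = 0.774).

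SCD (ENSG00000099194.6; chromosome 10, 100347124 to 100364834, plus strand) encodes the stearoyl-CoA desaturase that makes oleate and palmitoleate. In CPM it had 772 and 792 in CASM34, against 923 and 907 in p53WT, or 782 ± 13.9 and 915 ± 11.5 (SD, n = 2 each). The 2 libraries of a group differed by 0.04 and 0.03 on the log2 scale, much less than the distance between the groups. The log2 fold change was -0.23 (SE 0.05, edgeR adjusted p = 0.0247), a level that fell by 14.5%, with a 95% interval from -20.1% to -8.56%. It passed without CASM34 replicate 1 or 2, at -0.21 and -0.25, but not without p53WT replicate 1, at -0.22 (edgeR adjusted p = 0.172), or p53WT replicate 2, at -0.24 (edgeR adjusted p = 0.101). SCD also did not pass with an effective length offset, in limma on TPM or in a test against 1.2-fold (edgeR glmTreat). Over all genes, 3 rose and 0 fell with the effective length offset, 0 and 0 in limma on TPM, and 2 and 2 against 1.2-fold. All SCD counts were whole, and its effective length was nearly constant, between 4940 and 4945 bases.

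SCD was set against FASN and SCD5 as ratios of TPM, which carry no GC offset. The ratio of SCD to FASN in TPM was 1.504 and 1.681 in CASM34, against 1.82 and 2.03 in p53WT. The paralogue SCD5, chosen here for its relation to SCD, stayed within its spread at 10.6 and 11.3 TPM in CASM34 and 11.2 and 10.3 TPM in p53WT. The ratio of SCD to SCD5 was accordingly 17.4 and 16.8 in CASM34, against 19.9 and 20.9 in p53WT. Both ratios were lower in each CASM34 library than in each p53WT library. They use the same SCD values as its fold change and are not separate evidence of it. With the GC and length offset the order against FASN turned, as SCD lay at -0.22 and FASN at -0.29.

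The front-end desaturase genes FADS1 and FADS2 lie on opposite strands of chromosome 11, with RefSeq start sites 599 or 800 bases apart depending on the FADS2 start. Those FADS2 starts lie inside FADS1, so the genes overlap at their 5′ ends. In GENCODE 29 the whole span of FADS1 (ENSG00000149485.19; 61799625 to 61829318, minus strand) lies inside that of FADS2 (ENSG00000134824.14; 61792980 to 61867354, plus strand), which also contains FEN1. No source used here gives the strand setting of the counting, so reads of these overlapping genes may not be fully told apart. FADS1, the delta-5 desaturase gene, had 52.5 and 51.4 TPM in CASM34, against 55.3 and 45.4 TPM in p53WT. In TPM the p53WT libraries lay on either side of the CASM34 libraries. In CPM, by contrast, FADS1 had 134 and 133 in CASM34, against 144 and 142 in p53WT, without overlap.

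The log2 fold change of FADS1 was -0.10 on counts (SE 0.04, edgeR adjusted p = 0.265) and 0.05 in limma on log2(TPM + 1) (adjusted p = 0.881). Its effective length, the mean transcript length that the deposited tables assign in each library, was 3008 and 3057 bases in CASM34, against 3127 and 3677 bases in p53WT. FADS2, the delta-6 desaturase gene, had 11.6 and 14.6 TPM in CASM34, against 15.5 and 12.4 TPM in p53WT. Its groups overlapped in TPM, and the log2 fold change was -0.08 (SE 0.08, edgeR adjusted p = 0.661). FADS3, another gene of the cluster, singled out after its values were seen, had 22.6 and 21.3 TPM in CASM34, against 18.2 and 17.1 TPM in p53WT, and did not pass (log2 fold change 0.27, SE 0.09, edgeR adjusted p = 0.130).

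**Figure D2:**
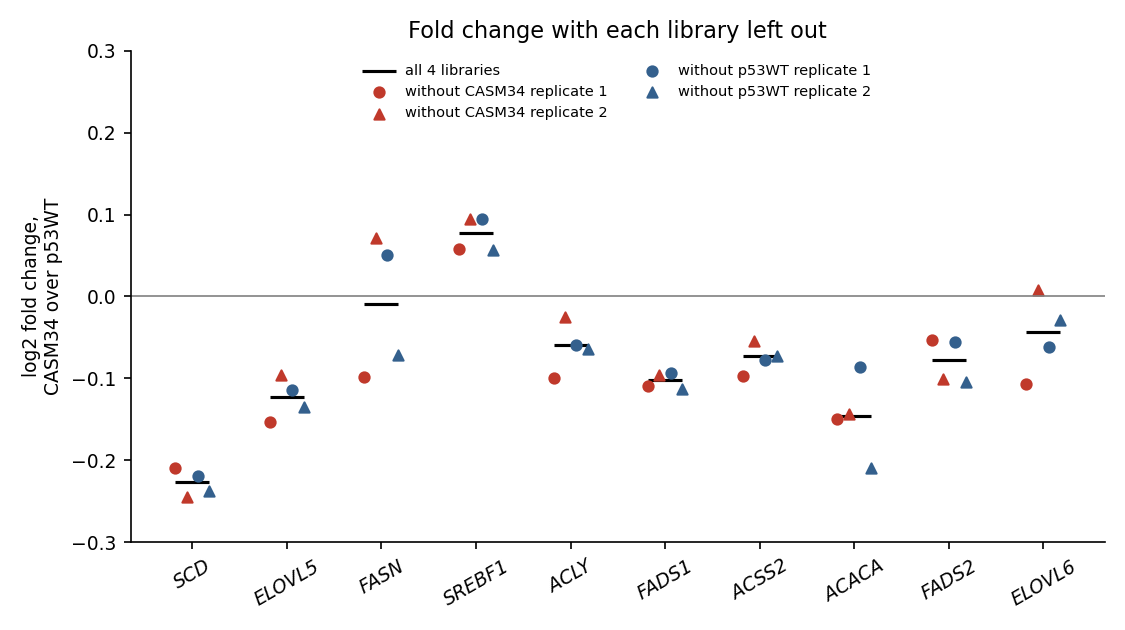
Log2 fold change, CASM34 over p53WT, of each member with all 4 libraries (black bar) and with each library left out (symbols). SCD stays between -0.25 and -0.21, while FASN lies between -0.10 and 0.07.

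The trend of gene levels with GC content differed between the groups. Across tested genes, centred log2 CPM changed with transcript GC content by 0.0735 and 0.0399 for every 10 percentage points in the CASM34 libraries. In the p53WT libraries it changed by -0.0585 and -0.0549. Each gene was centred on its mean over the 4 libraries, so opposite signs follow from the centring. Only the differences between libraries carry information. FASN and SREBF1 had the highest GC contents of the set, 65.3% and 63.5%, where only 2.82% and 6.38% of tested genes lay above them and the median was 49.5%. ELOVL6 and ELOVL5 had the lowest, 42.7% and 42.9%, and SCD had 47.1%. With an offset that takes out the GC and length trends library by library, all 10 members lay below 0, with a median of -0.15, where 56.3% of tested genes lay below 0 and the median was -0.02. In that fit 2 members fell and 0 rose, where 0.175% of tested genes fell and 0.194% rose.

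The 2 members were SCD and FASN. SCD hardly moved, at -0.22 (SE 0.04, edgeR adjusted p = 0.0269 with the offset). FASN lay at -0.29 with it (SE 0.05, edgeR adjusted p = 0.0255), against -0.01 without, and SREBF1 at -0.15 (SE 0.04, edgeR adjusted p = 0.116), against 0.08 without. ACACA stayed at -0.15, while FADS1 and FADS2 lay at -0.17 and -0.18 and ELOVL5 at -0.08, none of which passed. The part of GC content in the values without the offset was not tested, and the offset assumes that its trend is technical.

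**Figure D3:**
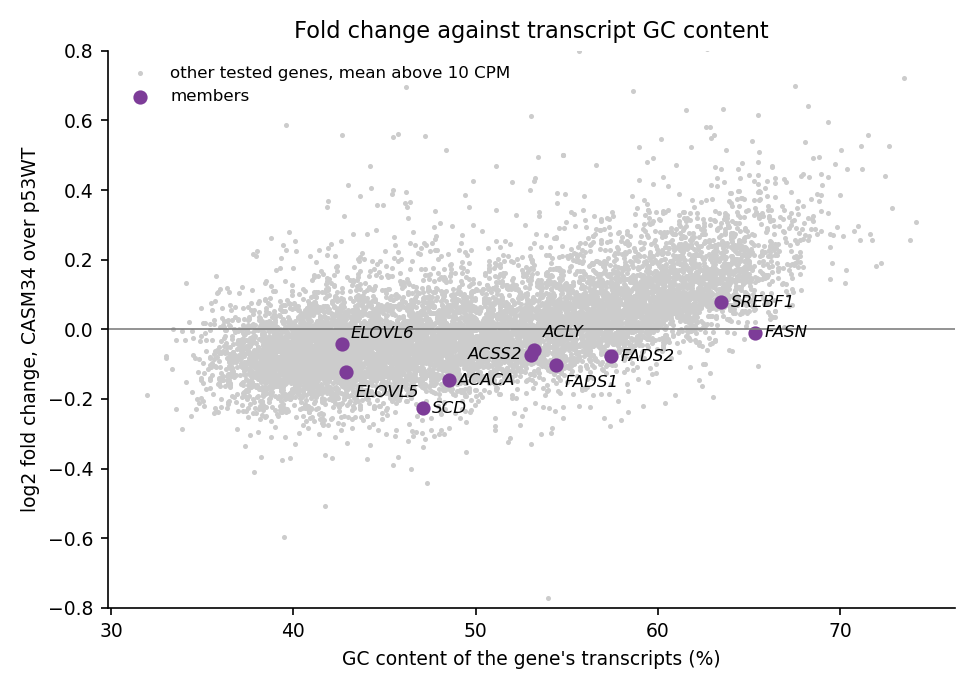
Log2 fold change, CASM34 over p53WT, against transcript GC content (percent). Purple points are the 10 members and grey points the other tested genes with a mean above 10 CPM, and 3 of the 9931 genes plotted lie beyond the vertical axis. Grey points rise with GC content, and FASN and SREBF1, at 65.3% and 63.5%, lie low among genes of similar GC.

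**Figure D4:**
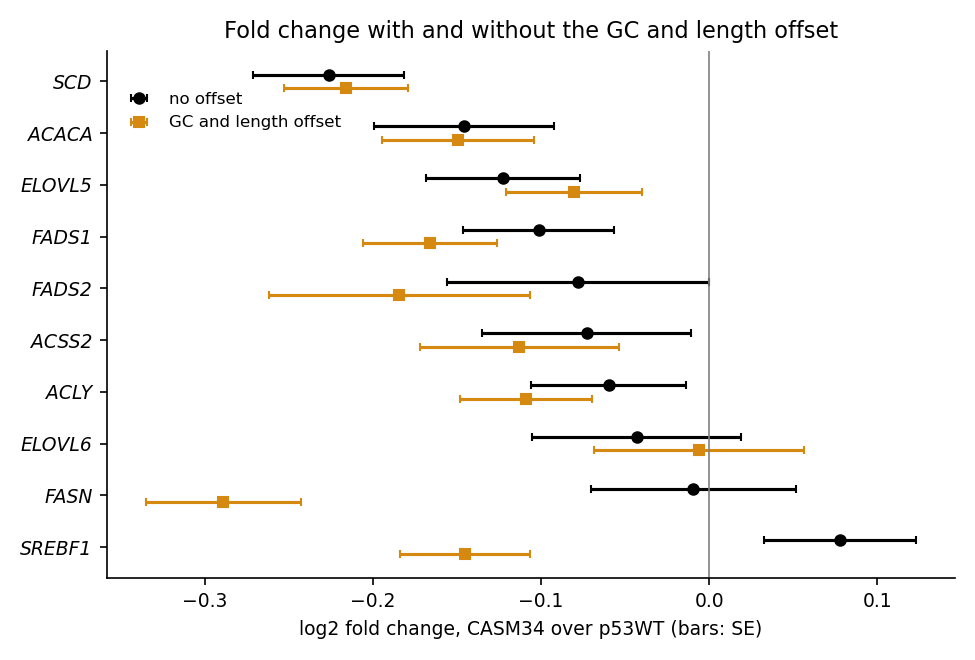
Log2 fold change of each member, CASM34 over p53WT, with its SE, without an offset (black circles) and with the GC and length offset (orange squares). SCD stays at -0.23 and -0.22, while FASN and SREBF1 lie at -0.29 and -0.15 with the offset, against -0.01 and 0.08 without.

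The genes around the pathway were followed in 8 lists of 104 genes, of which 96 were tested. Among these 96, 2 fell, 0 rose and 94 did not pass, where 0.345% of all tested genes fell and 1.61% rose. The median log2 fold change of the 96 was -0.03, against 0.00 for all tested genes. Those too low to test included the fatty acid transporter gene CD36, the lipogenic cofactor gene THRSP, and ACSS1, HACD4, FADS6, ACSL5 and ACSL6.

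Where 0.345% of all tested genes fell and 1.61% rose, 1 of 12 genes that control SREBP fell and 0 rose. It was INSIG1, which holds the SREBP escort complex in the endoplasmic reticulum and is itself an SREBP target, with 60.7 and 55.8 TPM in CASM34, against 66.3 and 62.9 TPM in p53WT. Its log2 fold change was -0.21 (SE 0.05, edgeR adjusted p = 0.0413). It passed without CASM34 replicate 2 but not without CASM34 replicate 1, p53WT replicate 1 or p53WT replicate 2 (edgeR adjusted p from 0.0895 to 0.211). With the GC and length offset it was -0.19 and did not pass (edgeR adjusted p = 0.0679). Chosen after their values were seen, the escort gene SCAP had a log2 fold change of 0.13 and SREBF2, the sterol-directed paralogue of SREBF1, one of 0.03 (edgeR adjusted p = 0.195 and 0.772). Of 10 tested sterol genes regulated mainly by SREBP-2, 9 lay below 0 and 1 fell, the synthase gene HMGCS1, with 30.04 and 29.88 TPM in CASM34, against 35.8 and 35.0 TPM in p53WT (log2 fold change -0.25, SE 0.06, edgeR adjusted p = 0.0376). HMGCS1 did not pass without CASM34 replicate 1 (-0.23, edgeR adjusted p = 0.0607) or without p53WT replicate 1 (-0.21, edgeR adjusted p = 0.228). It did not pass with the offset either, at -0.20 (edgeR adjusted p = 0.1004). INSIG1 and HMGCS1 also did not pass in DESeq2 (adjusted p = 0.0622 and 0.0843) or with library totals (edgeR adjusted p = 0.0629 and 0.0608). Neither passed with the effective length offset, in limma on TPM or against 1.2-fold. Both passed with the other scalings and filters, in limma-voom, and with the replicate block alone or with the GC and length offset. The median of the sterol list was -0.09, close to that of the 10 members.

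None of 13 genes for transcription factors or cofactors that act beside SREBP on lipogenic promoters passed, with a median of 0.00. USF2, an E-box factor, and NFYC, a subunit of the factor that binds CCAAT boxes, were the most abundant by TPM, and their log2 fold changes were 0.04 and -0.07 (both SE 0.05, edgeR adjusted p = 0.749 and 0.504). The GC and length offset put USF2 at -0.12. MLXIPL, the ChREBP gene, named after its values were seen, was low in all 4 libraries, with 0.68 and 1.09 TPM in CASM34 and 0.22 and 0.36 TPM in p53WT.

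Suppliers and users of fatty acids did not pass either. Among 10 tested genes of citrate, acetyl-CoA, malonyl-CoA and NADPH metabolism the median was -0.01. This list holds ACACB, MLYCD and MID1IP1 beside the supply genes. The citrate synthase gene CS and the pentose phosphate gene PGD lay at -0.11 and -0.09 (edgeR adjusted p = 0.235 and 0.348). The GC and length offset moved PGD to -0.14. Among 14 tested genes of elongation and desaturation outside the 10 the median was 0.00, and the last-step reductase gene TECR and the very-long-chain elongase gene ELOVL1 lay at 0.05 and 0.02. Among 13 tested genes of acyl-CoA use the median was -0.01, and the lipid droplet gene PLIN3 and the fatty acid carrier gene FABP5 lay at 0.05 and -0.03. TECR, ELOVL1 and PLIN3 turned to -0.06, -0.04 and -0.09 with the GC and length offset and FABP5 to 0.07, and none of the 4 passed with or without it.

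Fatty acid oxidation, the opposing pathway, had 16 tested genes, 11 of them below 0, with a median of -0.05, and none passed. ACADVL, the very-long-chain acyl-CoA dehydrogenase gene, had 333 and 342 TPM in CASM34, against 287 and 296 TPM in p53WT. Both CASM34 libraries were higher, and its log2 fold change was 0.18 (SE 0.05), with an edgeR adjusted p of 0.0697. ACADVL passed in DESeq2 (adjusted p = 0.0314), without a filter on low counts (edgeR adjusted p = 0.0475) and without CASM34 replicate 2 (edgeR adjusted p = 0.0454). The GC and length offset reduced its fold change to 0.064 (edgeR adjusted p = 0.548). ECHS1, the short-chain enoyl-CoA hydratase gene, lay at -0.04 (SE 0.05, edgeR adjusted p = 0.751). The GC and length offset put it at -0.17, which did not pass (edgeR adjusted p = 0.101). The separate mitochondrial synthesis pathway had 8 tested genes with a median of -0.07, and its acyl carrier gene NDUFAB1 and lipoate synthase gene LIAS lay at -0.12 and -0.17 (edgeR adjusted p = 0.291 and 0.244). The GC and length offset moved them to -0.043 and -0.10. With a library left out NDUFAB1 lay between -0.17 without p53WT replicate 1 and -0.068 without p53WT replicate 2, and LIAS between -0.25 without CASM34 replicate 2 and -0.086 without CASM34 replicate 1, and neither passed. Whether the 10 members differed from these lists was not tested.

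**Figure D5:**
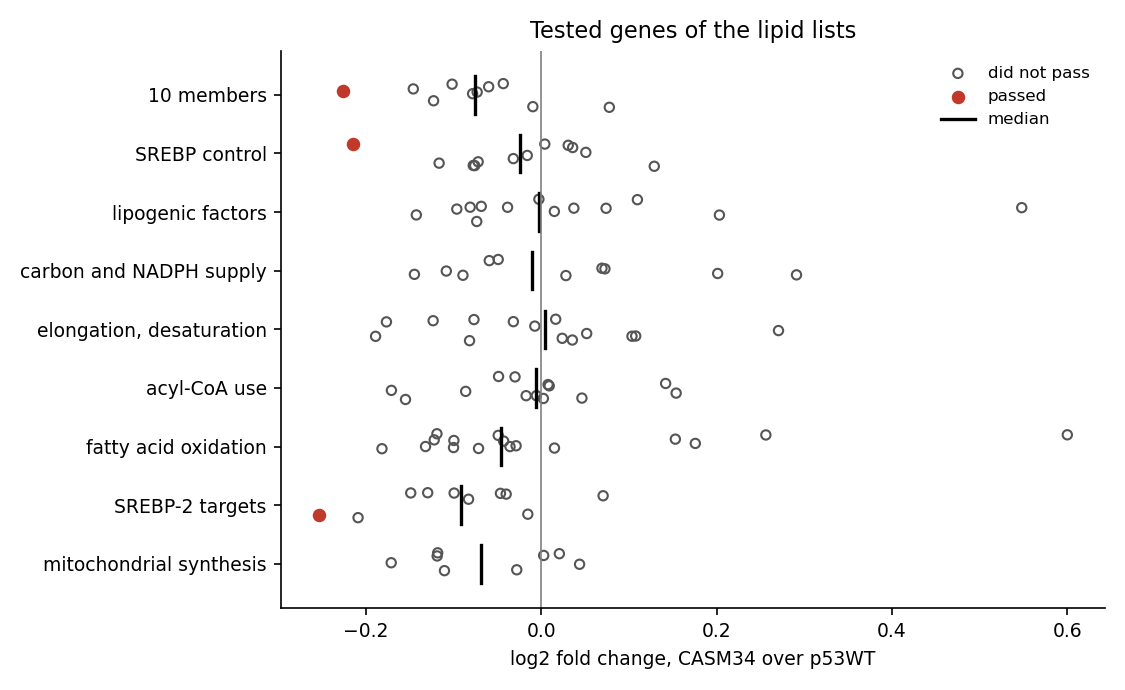
Log2 fold change, CASM34 over p53WT, of the tested genes of each list. Filled red points passed the test, open points did not, vertical bars are list medians, and the vertical spread of points is only for legibility. SCD, INSIG1 and HMGCS1 are the 3 red points, at -0.23, -0.21 and -0.25.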

How the data were processed

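The libraries were poly(A)-selected RNA from H1299 cells, per the labels' protocols. Trim Galore, STAR, RSEM and GRCh38 are named in the submitters' processing notes; no source used here gives their versions, the annotation release or the strand setting. Per the file headers, the deposited tables hold RSEM expected counts, effective length, TPM and FPKM for 61852 genes. The authors' expected counts are estimated reads per gene, and 8.63% to 9.26% of genes per library had a fractional count (tolerance 0.001). The deposited TPM values divide by effective length and are scaled to a fixed total per library. The deposited FPKM values were not used.

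Groups follow the labels. Expected counts were rounded and compared with edgeR (version 4.0.16, R 4.3.3) and its quasi-likelihood test (TMM factors 0.993 to 1.01; filterByExpr, minimum count 10; group as the only term). Of 61852 genes 15965 were tested, and p-values were adjusted by Benjamini-Hochberg over all of them, with a threshold of 0.05. CPM values use the TMM factors, fold changes are CASM34 over p53WT, and standard errors are |log2 fold change| over the root of the F statistic. Libraries of 1 group differed by more than counting error (chi-square per degree of freedom 3.94 in CASM34 and 3.90 in p53WT). Intervals rest on 2 libraries a group. Coordinates are those of GENCODE 29, whose gene versions are older than the files' for all 10 members. GC content was taken over all GENCODE 29 transcripts of a gene, for 15664 of the tested genes. The offset used natural splines with 5 degrees of freedom each on GC content and log effective length.

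The members and lists were chosen with earlier results of these data known. Named genes were all members, the passing genes of each wider list (at most 4) or, where none passed, the 2 with the highest mean TPM, and the 5 genes nearest to the members' mean profile. The 18 alternatives were 3 other scalings, 2 other filters, DESeq2 1.42.0, limma-voom (limma 3.58.1), limma on log2(TPM + 1) and log2(TPM + 0.1), offsets for effective length and for GC content and length, a replicate block alone and with that offset, glmTreat against 1.2-fold, and leaving out each library. The scripts were tested on simulated data.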

Additional observations from a re-analysis of the deposited data

How the results depend on the processing

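SCD kept its direction under all 18 alternatives, from -0.25 to -0.21, and passed in 12. The number of members that fell, 1 with all libraries, was 0 with an effective length offset, with limma on log2(TPM + 1) or log2(TPM + 0.1) and with glmTreat against 1.2-fold, 2 with the GC and length offset, and 0 to 1 with a library left out. No alternative made a member rise.

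Over all genes, 257 rose and 55 fell. These counts were 198 and 27 with library totals, 542 and 235 without a filter on low counts, 160 and 53 in DESeq2, 0 and 0 in both limma fits on TPM, 3 and 0 with the effective length offset, 31 and 28 with the GC and length offset, 2 and 2 with glmTreat, and 95 to 650 and 14 to 269 with a library left out. The edgeR test had 2734 genes at an unadjusted p under 0.05. In the wider lists 0 rose and 2 fell. This was 0 and 0 with library totals, both limma fits on TPM, the effective length offset and glmTreat, 1 and 0 in DESeq2, 2 and 5 without a filter, 0 and 1 with the GC and length offset, and 0 to 4 and 0 to 4 with a library left out. The labels do not say whether libraries of the same number belong together. Their deviations from the group means correlated at 0.0335 over all tested genes, low ones included, which cannot decide it. With a replicate block, 798 genes rose and 361 fell, 3 and 5 of them in the wider lists. With the replicate block and the GC and length offset, 160 rose and 253 fell, 0 and 5 in the wider lists, and 3 members fell, FASN, SCD and FADS1. ACADVL passed with the block alone (adjusted p = 0.0047) and ECHS1 with the block and offset (adjusted p = 0.0382).

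Some folds that had not passed changed sign. With limma on log2(TPM + 1), limma on log2(TPM + 0.1) and the effective length offset, FASN lay at 0.037, 0.037 and 0.032, FADS1 at 0.049, 0.050 and 0.043, and NIPA2, a gene near the members' profile, at 0.031, 0.031 and 0.027. With the GC and length offset, SREBF1, USF2, TECR, ELOVL1 and PLIN3 lay at -0.15, -0.12, -0.057, -0.036 and -0.088 and FABP5 at 0.067. With the replicate block added to that offset, they lay at -0.15, -0.12, -0.060, -0.036 and -0.088 and FABP5 at 0.064. With a library left out, FASN ranged from -0.098 to 0.072, ELOVL6 from -0.11 to 0.0081, TECR from -0.00068 to 0.097, ELOVL1 from -0.00025 to 0.031, USF2 from -0.012 to 0.086 and FABP5 from -0.068 to 0.0063. The causes were not tested. FADS2, with 436 to 628 counts per library, had the widest SE among the members, 0.078, and the number of libraries, 2 a group, limits every interval.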

Other observations

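The genes whose profile over the 4 libraries came nearest to the mean profile of the 10 members were ZNF217, TOP1, ITGA6, NIPA2 and BAZ1B, among 9767 genes with a mean of at least 10 CPM outside the lists. Likeness was the Euclidean distance between centred log2 CPM values, which was 0.00634 for ZNF217 and 0.0101 for BAZ1B. Their log2 fold changes lay between -0.08 and -0.07, and none passed (edgeR adjusted p from 0.398 to 0.484). No member was itself this close to the mean of the set, and 527 genes lay within 0.05 of it, so over 4 libraries the measure separates few genes. Of the 10 members, 4 lie on chromosome 17 (FASN, ACACA, ACLY and SREBF1), where 5.93% of tested genes lie, and their fold changes, from -0.15 to 0.08, spanned both signs.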
